A study of Mus musculus with 4 samples.

Results

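Endogenous opioids are peptides cut from large precursor proteins and sensed by a small family of receptors coupled to inhibitory G proteins. Penk encodes the enkephalin precursor, Pdyn the dynorphin precursor, Pomc the precursor of beta-endorphin and of the melanocortins, and Pnoc the nociceptin precursor. Oprm1, Oprd1 and Oprk1 encode the mu, delta and kappa receptors, and Oprl1 the nociceptin receptor. In the hippocampus enkephalin and nociceptin are known from interneurons, among other cells, and dynorphin from dentate granule cells. Mu and delta receptors are known from interneurons whose silencing disinhibits pyramidal cells, whereas neurons that make Pomc sit mainly in the arcuate hypothalamus.

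These 8 genes were taken by name from a deposited table of 23466 genes, and all 8 were found. Where a gene had several RefSeq records, the record with the highest mean over the 4 libraries stood for it. The record was thus chosen by the mean level and not by the difference between the groups, and levels are given as a description. The 8 genes were put together with earlier results of these data known, including that of Penk. Chromosomes and strands below are those of GENCODE M21 on the build GRCm38.

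RNA came from frozen hippocampus of C57BL/6N mice at postnatal day 30. Mutants 38 and 39, titled ko, had a condition field reading conditional het and the genotype Atp6ap2Camk2aCre/0. Wild-types 11 and 73 were the controls. The labels do not say what else the groups share, nor whether each library was 1 animal, so a p-value here reflects the spread of these samples only. Camk2a-driven Cre acts in forebrain excitatory neurons, so RNA of interneurons, glia and vessels in these libraries came from cells in which Cre is not expected. The question behind the design is which transcripts of the hippocampus respond when Atp6ap2, an accessory subunit of the vacuolar proton pump, is targeted in those neurons.

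Values are scaled read equivalents, the deposited aligned bases divided by 42 bases per read, and they are not corrected for transcript length unless stated. Before scaling, the libraries held 18328405 (mutant 38), 17543464 (mutant 39), 18339838 (wild-type 11) and 10023033 (wild-type 73) read equivalents over genes, so wild-type 73 is the least precise. The targeted gene, Atp6ap2, stood at 2551 and 2522 scaled read equivalents in mutants 38 and 39, against 2312 and 2637 in wild-types 11 and 73, so the whole-transcript value showed no drop (limma adjusted p = 0.991). Markers of dentate granule cells and of CA1 and subiculum were read in every library, with sums of 9491 to 11571 over 10 genes and 9884 to 13853 over 10 genes. The summed level of 17 choroid plexus markers divided each group, at 125810 in mutant 38 and 7837 in mutant 39, against 75496 in wild-type 11 and 7542 in wild-type 73. Each opioid gene is therefore also given within the pair of libraries high in these markers (mutant 38 over wild-type 11) and the pair low in them (mutant 39 over wild-type 73).

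The precursors share a short coding unit that the choice of genes did not use. A search of their coding sequences, in the GENCODE M21 transcripts paired with the deposited records, found 12 opioid cores of 15 bases, each encoding the first 5 amino acids of an opioid peptide. Penk held 7 of them, 6 of Met-enkephalin and 1 of Leu-enkephalin. Pdyn held 3 of Leu-enkephalin, Pomc held 1 of Met-enkephalin, and Pnoc held 1 of nociceptin. All 12 followed codons for a pair of basic amino acids, where the prohormone convertases cut. Such a pair also followed 5 of the 7 cores of Penk and all 3 of Pdyn. It did not follow Penk copies 4 and 7 or the single cores of Pomc and Pnoc. Whether a peptide ends at its core cannot be read from these bases. Examples are shown 5′ to 3′ on the coding strand, to let the spellings be compared, with the core in capitals and 6 bases on each side in lower case.
Penk copy 1: aagaagTACGGAGGCTTCATGaaacgg
Penk copy 4: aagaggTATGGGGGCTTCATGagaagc
Penk copy 6: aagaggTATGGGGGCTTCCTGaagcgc
Penk copy 7: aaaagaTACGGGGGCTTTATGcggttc
Pdyn copy 2: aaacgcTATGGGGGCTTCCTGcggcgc
Pomc copy 1: aagcgtTACGGTGGCTTCATGacctcc
Pnoc copy 1: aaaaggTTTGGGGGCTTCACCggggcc
The 7 cores of Penk had 6 spellings, and Penk copy 6 has the same 15 bases as Pdyn copy 2. The shared unit is shorter than a read. No stretch of 42 bases occurred in the transcripts of any 2 of the 8 genes, in 28 pairs compared, and the coding sequences of the 4 receptors were between 53.0% (Oprm1 and Oprl1) and 62.3% (Oprk1 and Oprd1) identical. A sense read of 42 bases with no mismatch therefore belongs to at most 1 of these transcripts.

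None of the 8 genes passed in the fit over all 18127 tested genes, although all 8 were tested (limma, Benjamini-Hochberg adjustment at 0.05). In that fit 1 gene passed in the higher direction, which is 0.00552% of the genes, and 0 passed in the lower direction, which is 0%. At an unadjusted p below 0.05, 1 of the 8 was higher, against 2.18% of all genes, and 0 were lower, against 1.75%. In 3 of the 8 both mutants lay above both wild-types, which held for 16.8% of all genes, and in 0 of the 8 both lay below, which held for 16.5%. The 3 were Penk, Oprk1 and, by a narrow margin in mutant 39, Pomc. The median log2 fold change of the 8 was 0.08, against 0.01 over all genes tested.

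Penk, the enkephalin precursor gene on the minus strand of chromosome 4, had 235 and 222 scaled read equivalents in mutants 38 and 39, against 137 and 129 in wild-types 11 and 73. Both mutants were above both wild-types, and the libraries within a group lay within 1.06-fold of each other. The mean was 229 ± 9.31 in mutant and 133 ± 5.55 in wild-type (SD, n = 2 each), a ratio of 1.72. On the log2 scale the fold change was 0.78 ± 0.16 (SE; 95% interval 0.39 to 1.17; limma unadjusted p = 0.00214, adjusted p = 0.733), which did not pass over all genes. Penk stood at rank 53 of 18127 by p-value. The p of Penk in the authors' deposited table was 0.00481, where 1.04% of transcript records had a p below 0.05 and a higher mutant mean. The difference had the same size in both choroid plexus pairs, at 0.78 on the log2 scale for mutant 38 over wild-type 11 and 0.78 for mutant 39 over wild-type 73. These values rest on 279 and 246 reads before scaling in the mutants and 164 and 82.7 in the wild-types. In bulk tissue, more cells of a type and more RNA per cell cannot be told apart.

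**Figure D1:**
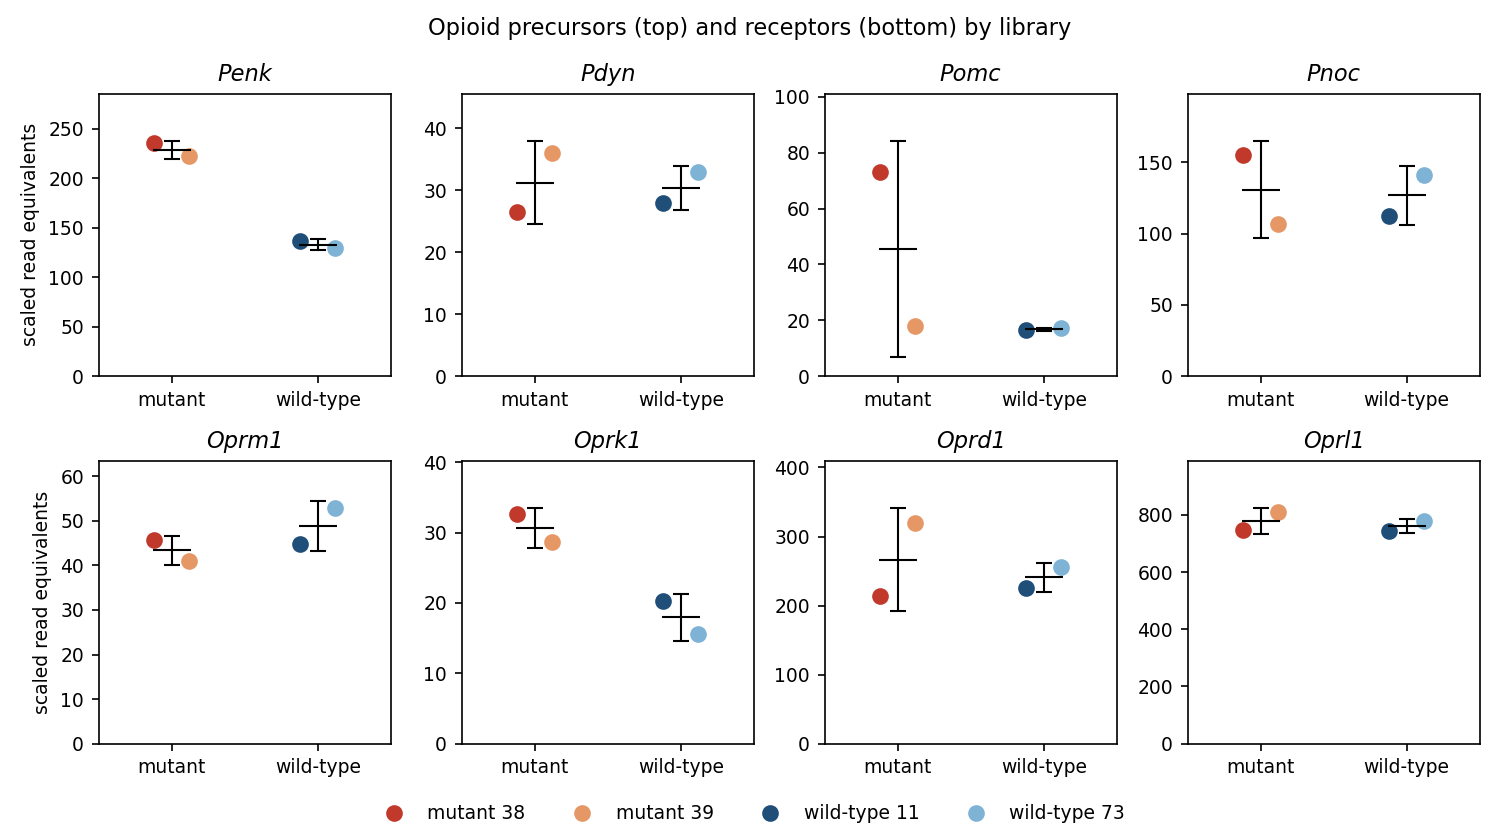
Scaled read equivalents (vertical axes, from 0) of the 4 precursor genes and 4 receptor genes in each library, mutants left and wild-types right; horizontal bars are group means and error bars are SD (n = 2 each). Penk and Oprk1 separate the groups in all 4 libraries, while Pomc is high in mutant 38 alone at 72.96.

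Markers of neurons that are known to use Penk did not all move with it. Striatum is the region best known for Penk. Of 12 striatal markers, 1 had both mutants above both wild-types and 4 had both below, against 16.8% and 16.5% of all genes. Their summed level was 5095 and 4628 in mutants 38 and 39, against 4827 and 4865 in wild-types 11 and 73. Adora2a, the adenosine receptor of enkephalin neurons in the striatum, had 28.4 and 31.5 scaled read equivalents in the mutants, against 21.7 and 19.3 in the wild-types. Drd2, the dopamine receptor of the same neurons, had 50.6 and 11.7 in the mutants, against 17.5 and 23.4 in the wild-types. The groups thus did not overlap for Adora2a and overlapped for Drd2. Summed interneuron markers were 19965 and 21339 in the mutants, against 19309.9 and 22316 in the wild-types over 17 genes, so the groups overlapped.

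Summed markers of oligodendrocytes, of thalamus and of dentate granule cells, and summed activity genes, did not overlap between the groups, for thalamus by a narrow margin. Oligodendrocyte markers summed to 112520 and 99592 in the mutants, against 91549.5 and 65943 in the wild-types over 11 genes. Thalamus markers summed to 7081 and 2869.6 in the mutants, against 2843 and 2642 in the wild-types over 10 genes, so that mutant 38 stood apart and mutant 39 lay beside wild-type 11. Of these 10 thalamus markers, 3 (Slc17a6, Rora and Plekhg1) had both mutants above both wild-types, as Penk did, and 0 had both below. Slc17a6 had 954 and 783 in the mutants, against 380 and 408 in the wild-types, and Rora 396 and 289 against 230 and 216. Dentate granule markers were lower, at 10295 and 9491 in the mutants, against 10877 and 11571 in the wild-types over 10 genes. Penk transcription is known to respond to neuronal activity, and the summed activity genes were lower, at 10788 and 12064 in the mutants, against 14042 and 13299.6 in the wild-types over 16 genes. Within that group 7 genes had both mutants below both wild-types and 1 had both above. The gap in the activity sum depends on Arc, with 1344 and 1647 in the mutants, against 3354 and 2884 in the wild-types. The rest of that list, Fos and Egr1 among them, overlapped between the groups. Of the 11 oligodendrocyte markers 10 had both above and 0 below, and of the 10 dentate markers 0 above and 2 below. Over all genes the shares were 16.8% above and 16.5% below. None of the genes in these 6 lists passed over all genes (limma). At an unadjusted p below 0.05 (limma), 8 oligodendrocyte and 3 thalamus markers and 1 activity gene were higher, against 2.18% of all genes. Lower were 4 activity genes, 2 dentate markers, 1 striatal marker (Rxrg) and 1 interneuron marker (Nos1), against 1.75% of all genes. The part of these differences in the value of Penk was not tested.

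By profile over the 4 libraries, the genes most like Penk were Sgpp2, Klf2, Arrdc3, Csrnp1 and Btg2. They were the nearest of 11673 genes with a mean of at least 100, at Euclidean distances of 0.12 to 0.16 between centred log2 values. Sgpp2, a sphingosine phosphatase gene, had 299 and 281 scaled read equivalents in the mutants, against 178 and 181 in the wild-types. Klf2, a transcription factor gene of endothelium, had 227 and 229.9 in the mutants, against 138 and 141 in the wild-types. All 5 had both mutants above both wild-types. With 4 libraries this likeness mostly restates a high level in both mutants.

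Pdyn, the dynorphin precursor gene on the minus strand of chromosome 2, had 26.5 and 36.0 scaled read equivalents in mutants 38 and 39, against 27.9 and 32.9 in wild-types 11 and 73. The wild-types lay between the mutants. Its log2 fold change was 0.03 ± 0.33 (SE; n = 2 in each group, limma adjusted p = 0.997), with a 95% interval of -0.75 to 0.81, so a rise as large as that of Penk lies inside it. Within the choroid plexus pairs it was -0.07 (high) and 0.13 (low). Between 21.1 (wild-type 73) and 39.9 (mutant 39) reads stood behind each value. Its nearest profiles were those of Klc2, Hapln4, Tiam2, Ppp1r1a and Fchsd1, at distances of 0.03 to 0.04 on the log2 scale.

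Pnoc, the nociceptin precursor gene on the minus strand of chromosome 14, had 155 and 107 scaled read equivalents in mutants 38 and 39, against 112 and 141 in wild-types 11 and 73. Again the wild-types lay between the mutants. The log2 fold change was 0.03 ± 0.25 (SE; 95% interval -0.56 to 0.62; n = 2 in each group, limma adjusted p = 0.997). The choroid plexus pairs gave opposite signs, at 0.46 for mutant 38 over wild-type 11 and -0.40 for mutant 39 over wild-type 73. Its nearest profiles were those of Sema4g, Kitl, Trmt13, D930015M05Rik and Efcab12, at distances of 0.04 to 0.11.

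Pomc, on the plus strand of chromosome 12, had 72.96 and 18.1 scaled read equivalents in mutants 38 and 39, against 16.5 and 17.2 in wild-types 11 and 73. A single library, mutant 38, was high, and it stood 4.04-fold above mutant 39. The group means of 45.5 ± 38.8 in mutant and 16.8 ± 0.502 in wild-type (SD, n = 2 each) therefore describe no common level in the mutants. The log2 fold change was 1.08 ± 0.62 (SE; 95% interval -0.38 to 2.53; limma adjusted p = 0.989), and without mutant 38 it was 0.10. It was 2.08 for mutant 38 over wild-type 11 and 0.07 for mutant 39 over wild-type 73. All 5 records of Pomc showed the same pattern, with 69.7 to 72.96 in mutant 38 and 18.1 to 18.3 in mutant 39, against 16.5 in wild-type 11 and 17.2 in wild-type 73. These records are not independent, since a read shared by overlapping transcripts can be in each, and their wild-type values were identical. Mutant 38 had 86.4 Pomc reads before scaling and the other libraries between 11 and 20.

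Some genes of other regions were high in the same library. In mutant 38 the thalamus markers summed to 7081, against 2642 to 2869.6 in the other 3 libraries, and 9 of the 10 were highest there. This was not particular to markers of other regions, since all 17 choroid plexus and all 11 oligodendrocyte markers were also highest in mutant 38. Prkcd, a kinase gene of thalamic neurons, had 1841 in mutant 38 and 465 in mutant 39, against 499 and 405 in wild-types 11 and 73. The thalamus marker Slc17a6 was instead high in both mutants, at 954 and 783, against 380 and 408 in the wild-types. Isl1 and Six3, homeobox genes of ventral forebrain and hypothalamus that were named after their values were seen, had 47.2 and 32.8 in mutant 38 and 0.903 and 1.81 in mutant 39. In wild-types 11 and 73, Isl1 had 7.52 and 1.56 and Six3 had 2.51 and 3.12. Both belong to the striatal list, where 4 of the 12 markers were highest in mutant 38 and 8 were highest in another library.

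The 12 hypothalamic markers summed to 68.8 and 33.9 in mutants 38 and 39, against 54.3 and 45.8 in wild-types 11 and 73. Cartpt, which is also made in dentate granule cells, was the highest of them in every library, at 35.4 and 12.6 in the mutants, against 35.2 and 27.9 in the wild-types. Agrp, made beside Pomc in the arcuate nucleus, had 4.16 and 2.95 scaled read equivalents in mutants 38 and 39, against 2.41 and 4.50 in wild-types 11 and 73. Trh, the thyrotropin-releasing hormone gene, had 16.0 and 3.05 in the mutants, against 8.33 and 1.56 in the wild-types. It was thus highest in mutant 38, but unlike Pomc it was higher in wild-type 11 than in mutant 39. Ghrh, the growth hormone-releasing hormone gene, had 2.53 and 0.602 in the mutants and was listed at 0 in both wild-types. In all, 6 of the 12 hypothalamic markers were highest in mutant 38, but Cartpt, Oxt and Kiss1 only by narrow margins. Oxt had 0.844 and 0.838 in mutants 38 and 39, and Kiss1 had 0.844 in mutant 38 and 0.835 in wild-type 11. The share of all genes highest in mutant 38 was not counted, for comparison with this list or with the other lists. Of the 12, 6 stayed below the filter for testing, among them Avp, Oxt and Hcrt, none of which exceeded 2.43. Of 8 pituitary genes, chosen after the values of Pomc were seen, 5 were highest in mutant 38, Pou1f1 only narrowly (1.69, against 1.56 in wild-type 73). Among these, Lhb, a luteinizing hormone subunit gene, had 11.5 and 3.22 in mutants 38 and 39, against 8.09 and 2.83 in wild-types 11 and 73. Tbx19, a transcription factor gene of Pomc-producing pituitary cells, had 2.53 and 0 in the mutants, against 0.835 and 0 in the wild-types. It stayed below the filter for testing. Growth hormone (Gh) was highest in a wild-type, with 28.6 and 4.51 in the mutants, against 0 and 70.3 in the wild-types. Prl and Pitx1 were likewise highest in wild-type 73, at 9.37 and 3.12, against 2.53 and 0 in mutant 38. Whether tissue from outside the hippocampus had a part in the Pomc value was not tested.

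**Figure D2:**
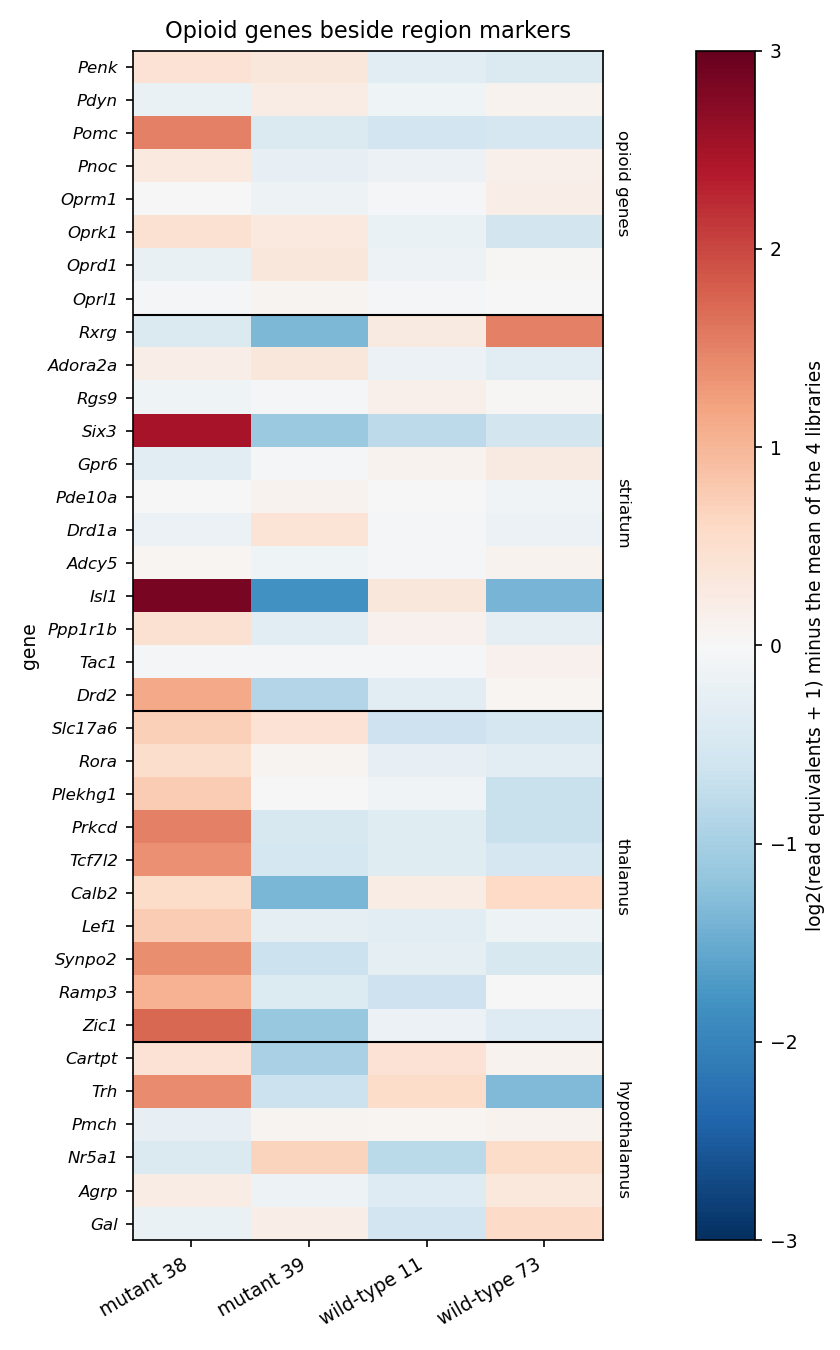
Each cell is log2(read equivalents + 1) of a gene minus its mean over the 4 libraries (colour scale), for the 8 opioid genes and for tested markers of striatum, thalamus and hypothalamus. The Pomc row is high in mutant 38 only, at 72.96 scaled read equivalents, as are rows such as Isl1 (47.2) and Prkcd (1841). The Penk row is high in both mutants, as is that of the thalamus marker Slc17a6 (954 and 783).

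Among the receptors, Oprk1, the kappa receptor gene on the plus strand of chromosome 1, had 32.7 and 28.7 scaled read equivalents in mutants 38 and 39, against 20.3 and 15.6 in wild-types 11 and 73. Both mutants were above both wild-types, at 30.7 ± 2.81 in mutant and 17.98 ± 3.34 in wild-type (SD, n = 2 each), a ratio of 1.71. The log2 fold change was 0.75 ± 0.35 (SE; 95% interval -0.07 to 1.57; limma unadjusted p = 0.0683, adjusted p = 0.989), and Oprk1 did not pass. It was 0.66 for mutant 38 over wild-type 11 and 0.84 for mutant 39 over wild-type 73. Few reads stood behind it, with 38.7 and 31.8 in the mutants and 24.4 and 10 in the wild-types before scaling. The p of Oprk1 in the authors' deposited table was 0.272.

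Oprm1, the mu receptor gene on the plus strand of chromosome 10, had 45.7 and 41.1 scaled read equivalents in mutants 38 and 39, against 44.9 and 52.9 in wild-types 11 and 73. The groups overlapped, and the log2 fold change was -0.16 ± 0.27 (SE; 95% interval -0.81 to 0.48; n = 2 in each group, limma adjusted p = 0.989). It was 0.03 for mutant 38 over wild-type 11 and -0.36 for mutant 39 over wild-type 73. In the annotation 89 of the 2420 bases of its transcript lie opposite exons of Ipcef1, a gene on the other strand, and the strand setting of the counting is not given in the sources used here. Penk likewise has 157 of its 1449 bases opposite exons of the non-coding gene A830012C17Rik. The other 6 transcripts share no exon base with another gene of the annotation.

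Oprd1, the delta receptor gene on the minus strand of chromosome 4, had 214 and 319 scaled read equivalents in mutants 38 and 39, against 226 and 255 in wild-types 11 and 73. The mutants lay outside the wild-types on both sides, 1.49-fold apart. Its log2 fold change was 0.12 ± 0.21 (SE; 95% interval -0.39 to 0.63; n = 2 in each group, limma adjusted p = 0.989). The choroid plexus pairs gave -0.08 (high) and 0.32 (low). The nearest profiles were those of Gm2115, Nrep, Hs6st3, Ankrd35 and Htr5a, at distances of 0.06 to 0.09.

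Oprl1, the nociceptin receptor gene on the plus strand of chromosome 2, was the steadiest of the 8. It had 748 and 811 scaled read equivalents in mutants 38 and 39, against 744 and 778 in wild-types 11 and 73, so the groups overlapped. Its log2 fold change was 0.03 ± 0.11 (SE; n = 2 in each group, limma adjusted p = 0.993), and the 95% interval of -0.22 to 0.29 leaves out a change of the size seen for Penk. The pairs gave 0.01 (high) and 0.06 (low). Its 5 records had means between 749.7 and 770.1, and the record with the highest mean is a non-coding one, which shares most of its reads with the coding records. The nearest profiles were those of Ube3b, Necap1, Lhfpl4, Gltscr1l and Cbs, at distances of 0.01 to 0.02.

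**Figure D3:**
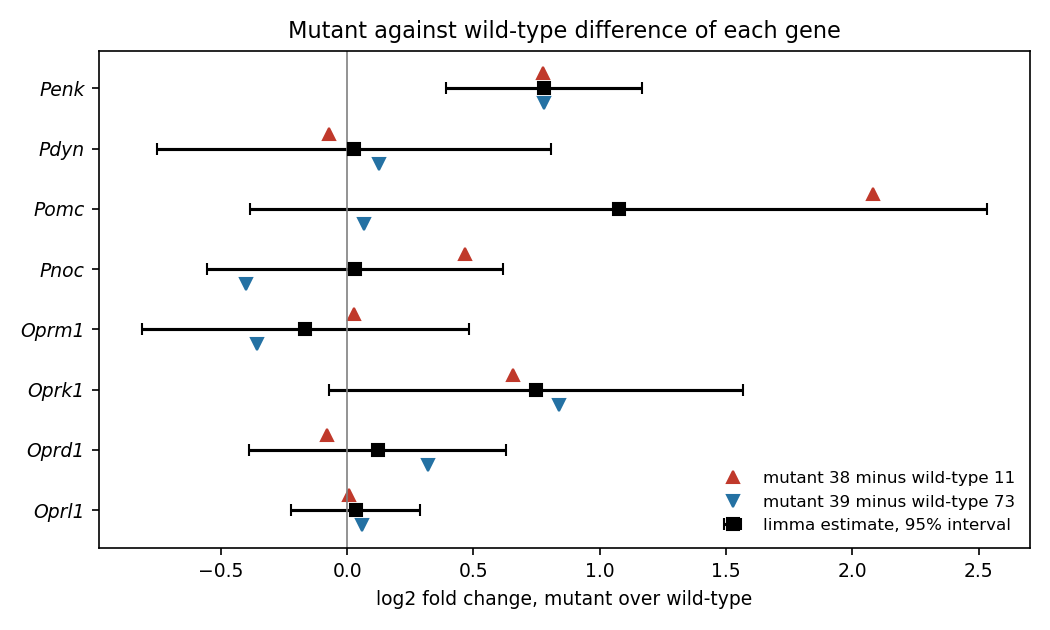
Log2 fold change of mutant over wild-type for each gene: squares are limma estimates with 95% intervals, and triangles are the differences within the library pairs high (up) and low (down) in choroid plexus markers. The interval of Penk runs from 0.39 to 1.17 and both its pairs sit at 0.78, while the pairs of Pomc lie at 2.08 and 0.07.

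Divided by transcript length, the receptor gene Oprl1 had the highest level of the 8, with 247 and 268 scaled read equivalents per kilobase in mutants 38 and 39, against 245 and 258 in wild-types 11 and 73. Penk followed, at 163 and 153 per kilobase in the mutants, against 94.5 and 89.1 in the wild-types. Oprd1 ranged over the 4 libraries from 53.2 to 79.4 per kilobase, Pnoc from 49.5 to 71.9 and Pomc from 16.0 to 70.8. Oprm1 ranged from 17.0 to 21.8 per kilobase, Pdyn from 11.1 to 15.1 and Oprk1 from 3.34 to 6.99. In that order Oprd1 and Pnoc overlapped, Pomc overlapped Pnoc through mutant 38 alone, and Pomc overlapped Oprm1, while the other neighbours did not overlap. Lengths came from GENCODE M21 transcripts paired with the same RefSeq records, except that Oprl1 was measured on its coding record.

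**Figure D4:**
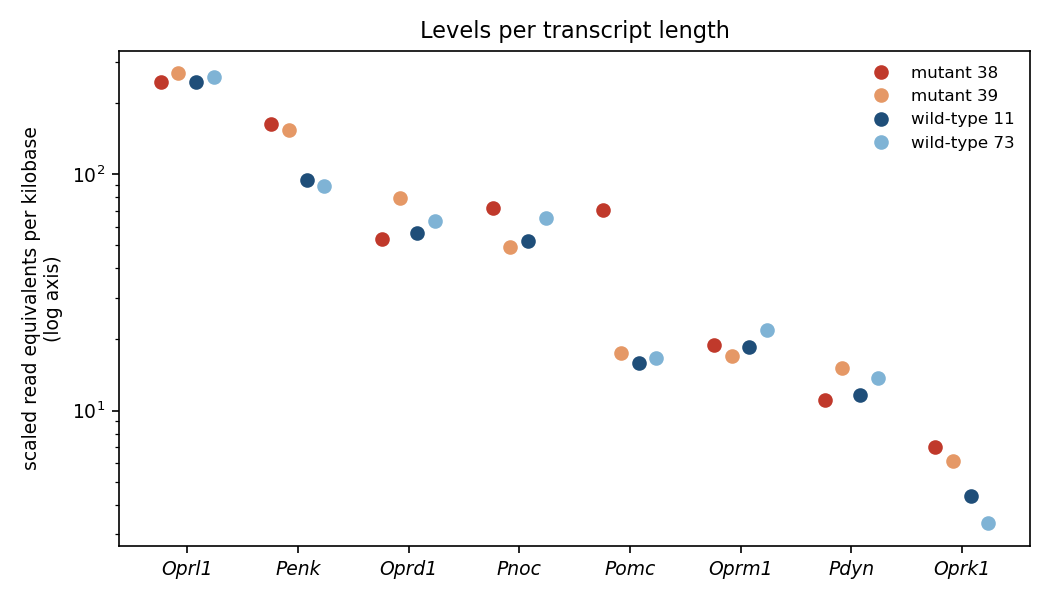
Scaled read equivalents per kilobase of transcript (log axis) for the 8 genes in order of their mean, with 1 point per library, mutants left of wild-types within each gene. Oprl1 lies highest (245 to 268) and Oprk1 lowest (3.34 to 6.99).

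The enzymes that cut the precursors showed no called change. For their list and the lists after it, the share of all genes with both mutants above both wild-types was 16.8%, and with both below 16.5%. At an unadjusted p below 0.05 (limma) the shares of all genes were 2.18% higher and 1.75% lower. Of 13 processing genes 0 passed in either direction (limma) and 0 had an unadjusted p below 0.05, 2 had both mutants above both wild-types and 0 had both below, and the median log2 fold change was 0.01. The 2 were Ctsl, which encodes cathepsin L, a protease that can process enkephalin precursor, and Pam, the enzyme that amidates peptide ends. Ctsl had 1152 and 1038 scaled read equivalents in mutants 38 and 39, against 1001 and 777 in wild-types 11 and 73 (log2 fold change 0.31 ± 0.14 SE, limma adjusted p = 0.989). Pam had 4296 and 4632 in the mutants, against 3924 and 3917 in the wild-types (0.19 ± 0.10). Pcsk2, a prohormone convertase gene, had 0.21 ± 0.14, and Scg5, which encodes its chaperone, had 0.26 ± 0.14 (log2 fold change, SE, n = 2 in each group), both with overlapping groups.

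Peptidases that degrade opioid and other small peptides also showed no called change. Of 13, 0 passed (limma) and 1, Dpp4, had an unadjusted p below 0.05. In 4 both mutants were above both wild-types and in 0 both were below, with a median log2 fold change of 0.03. Dpp4, a cell surface dipeptidase gene, had 126.3 and 102 scaled read equivalents in mutants 38 and 39, against 72.0 and 58.7 in wild-types 11 and 73 (log2 fold change 0.79 ± 0.24 SE, limma unadjusted p = 0.0129, adjusted p = 0.989). Nln, the neurolysin gene, had 0.20 ± 0.12, Lnpep, an aminopeptidase gene, had 0.16 ± 0.11, and Anpep, the aminopeptidase N gene, had -0.27 ± 0.33 (log2 fold change, SE, n = 2 in each group). Mme, which encodes neprilysin, the classical enkephalinase, had 116 and 113 scaled read equivalents in the mutants, against 92.4 and 120.1 in the wild-types, so its groups overlapped.

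Downstream of the receptors, 19 G protein, potassium channel, calcium channel and adenylyl cyclase genes had a median log2 value of 0.0037 for the fold change, with 2 above and 3 below in both mutants, 0 passing (limma) and 0 at an unadjusted p below 0.05. Their smallest p-values belonged to the inhibitory G protein genes Gnai3 (0.17 ± 0.12) and Gnai2 (-0.16 ± 0.11) and the potassium channel genes Kcnj9 (-0.21 ± 0.15) and Kcnj3 (0.13 ± 0.11; log2 fold change, SE, n = 2 in each group). Receptor regulators likewise had 0 of 15 passing and 0 at an unadjusted p below 0.05 (limma), 2 above and 3 below in both mutants, and a median of 0.01. Among them were the receptor kinase genes Grk5 (0.46 ± 0.24) and Adrbk1 (-0.17 ± 0.11), the mu receptor partner gene Wls (0.37 ± 0.21) and Rgs14, an inhibitor of G protein signalling (0.19 ± 0.14; log2 fold change, SE, n = 2 in each group).

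Other peptide genes set the value of Penk in context. Of 21 other neuropeptide and granin genes 0 passed (limma), 1 (Nts) had an unadjusted p below 0.05, 2 had both mutants above both wild-types and 1 had both below, and the median log2 fold change was -0.02. Nts, the neurotensin gene, had 133 and 122 scaled read equivalents in mutants 38 and 39, against 76.5 and 85.2 in wild-types 11 and 73 (log2 fold change 0.65 ± 0.21 SE, limma unadjusted p = 0.0160, adjusted p = 0.989). The interneuron peptide gene Sst had 1705 and 1927 in the mutants, against 1911 and 2492 in the wild-types (-0.27 ± 0.15). The granin genes Scg2 (0.16 ± 0.11) and Chgb (0.24 ± 0.18; log2 fold change, SE, n = 2 in each group) completed the 4 with the smallest p-values. Tac1, a peptide gene of the striatal neurons that make dynorphin, had 94.8 and 95.7 in the mutants, against 97.4 and 109 in the wild-types.

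**Figure D5:**
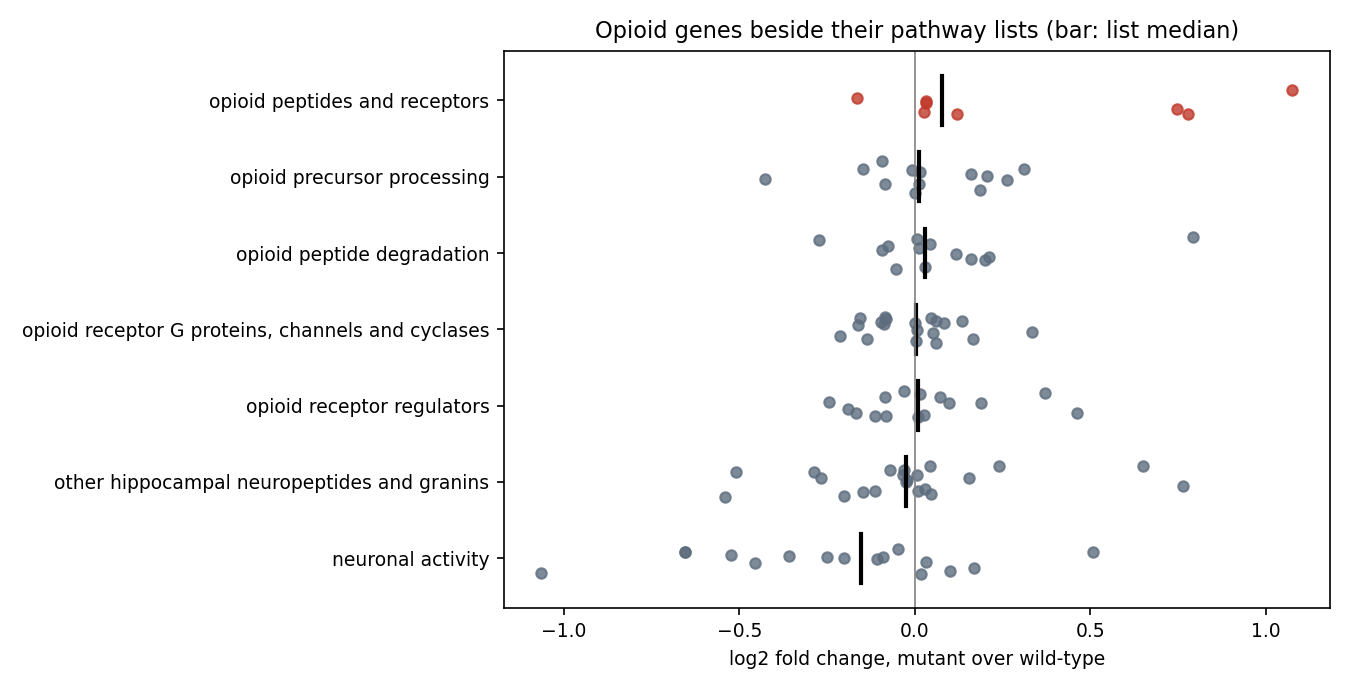
Log2 fold change of mutant over wild-type (horizontal axis) for each tested gene of the opioid family, its pathway lists and the neuronal activity genes, 1 point per gene, with black bars at list medians. Medians of the opioid pathway lists lie between 0.0037 and 0.03, and Penk, Oprk1 and Pomc are the opioid genes to the right, at 0.78, 0.75 and 1.08.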

How the data were processed

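RNA-seq of ribosome-depleted, strand-marked hippocampal RNA was read from a single end in 2 mutant and 2 wild-type samples. Per the submitters' processing notes, GSNAP, DESeq2 and the build mm9 were used, with no versions or roles given. The sources used here name neither the counter, nor its strand setting, nor the annotation. The authors deposited 1 signal value per library and 1 p-value per transcript record, the latter per the file headers from DESeq, without saying whether it was adjusted. Every signal value checked was a whole multiple of 1 step per library (tolerance 0.05), with the highest values left unchecked. Of the low values, 54.0% (wild-type 11) to 56.1% (mutant 39) lay at the first multiples of 42 steps. The values were therefore taken as aligned bases divided by a library factor, not counts, and were divided here by 42. A read shared by overlapping transcripts can be in each.

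Genes that reached 1 read equivalent in at least 2 libraries entered the test, on log2(value + 1), which understates changes of low genes, with limma 3.58.1 in R 4.3.3 (variance trend, two-sided, Benjamini-Hochberg at 0.05). A simulated data set with known changes was used to check the fit. For 2 mutants and 2 wild-types the smallest two-sided exact permutation p is 0.333. Members and lists were chosen with earlier results of these data known. All members are named, together with the 4 genes of smallest p in each pathway list, the 5 nearest profiles of Pdyn and of members with a mean of at least 100, and markers by list; other genes were named after their values were seen. 1 striatal marker is not reported here. Lists count each gene once where an older symbol was used. Sequences and lengths are from GENCODE M21 transcripts (GRCm38, Biopython 1.88); no coordinates are given, since the files use another build. Promoter entries for Penk, Pnoc and Oprk1 were not used here. Python 3.11.15 and matplotlib 3.10.9 were used. The alternatives were pseudocounts of 0.5 and 5, no filter, median-ratio scaling, no variance trend, a robust prior, values in bases, a fit of every record, a choroid plexus covariate, leaving out each library and, added after seeing the data, a block on the choroid plexus pairs.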

Additional observations from a re-analysis of the deposited data

How the results depend on the processing

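Under the 14 alternatives with a test, 0 of the 8 opioid genes passed. No paired analysis by replicate number was possible because the groups share none. A block on the choroid plexus pairs, which come from the values and were added after seeing the data, gave 69 genes over all and a limma adjusted p of 0.135 for Penk. Over all genes, 1 gene passed, against 62 with no filter on low values, 0 with no variance trend, 12 with a robust variance prior and 98 with the choroid plexus covariate, which like the block leaves 1 residual degree of freedom. Leaving out a library gave 1 (without wild-type 73) to 37 (without wild-type 11) genes. The log2 fold change of Penk lay between 0.74 and 0.82 and its limma adjusted p between 0.0524 (choroid plexus covariate) and 0.999859 (without mutant 38). Oprk1 lay between 0.57 and 0.93, Oprm1 between -0.28 and -0.05, and Pomc between 0.10 (without mutant 38) and 2.05 (without mutant 39). The other 4 changed sign when a library was left out. Pdyn ran from -0.19 (without mutant 39) to 0.24 (without mutant 38) and was -0.09 without wild-type 11. Pnoc ran from -0.24 (without mutant 38) to 0.30 (without mutant 39) and was -0.13 without wild-type 11. Oprd1 ran from -0.17 (without mutant 39) to 0.41 (without mutant 38), and Oprl1 from -0.025 (without mutant 39) to 0.091 (without mutant 38). In a fit with 1 library in a group, that library is assumed to vary like the others. The cause of these moves was not tested. Depth limits Pdyn, Pomc and Oprk1 most, each with 10 to 33.4 reads before scaling in the wild-types.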
